A study of Mus musculus with 20 samples.

Results

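Mm014, Mm044 and Mm061 are 3 mouse probes of a sterol and drug metabolism array that read lower in the livers of wild-type mice given TCPOBOP than in a pool of vehicle-treated wild-type livers. They were chosen on their wild-type values, so those values are given as a description and no test was made of them. They are 3 of the 120 mouse probes on the array and 3 of the 82 that could be tested, with values from 3 or more arrays in each of the 4 genotypes. None of the files used here pairs a probe identifier with a gene, so the probes are called by their identifiers, no role can be given to them, and neither their sequences nor their positions in the mouse genome are shown.

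The animals were male C57BL/6J mice, 9 to 12 weeks old, and the tissue was liver. Treated mice received 10 mg/kg TCPOBOP by intraperitoneal injection, control mice received 5% DMSO in corn oil, and livers were taken 12 h later. Each of 20 two-colour Sterolgene arrays carried RNA of a treated liver labelled with Cy5 and RNA pooled from 6 vehicle-treated livers of the same genotype labelled with Cy3. The groups were 6 wild-type livers (WT), 6 livers deficient in the constitutive androstane receptor (CAR, CARKO), 4 deficient in the pregnane X receptor (PXR, PXRKO) and 4 deficient in both (CARPXRKO). Each genotype had 1 pool, so the spread between arrays leaves out the spread between vehicle-treated animals, and no array had the dyes swapped. Values are log2 ratios of treated liver over pool after loess normalization, so that a value below 0 means less signal in the treated liver.

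CAR and PXR are nuclear receptors that sense foreign compounds in the liver and switch on genes of drug metabolism, such as those of cytochrome P450 enzymes. TCPOBOP is a strong agonist of mouse CAR. Both receptors pair with the retinoid X receptor on DNA, share part of their target genes, and are known to lower the expression of some genes of glucose and lipid metabolism as well as to raise others. The single and double deficiencies ask which of the receptors a response to TCPOBOP needs.

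The 3 probes had a value on every array: each had 60 spots in all, none of them flagged or saturated. A probe counted as well above background when most of its spots were over 2 background SDs brighter than their surroundings. In the Cy3 channel this held on 20 of 20 arrays for Mm014 and Mm044 and on 19 for Mm061, and in the Cy5 channel on 19, 20 and 18. The exceptions were Mm014 in Cy5 on WT 3, Mm061 in Cy5 on PXRKO 4, and Mm061 in both channels on CARPXRKO 1. The 4 arrays WT 3, WT 5, CARKO 3 and CARPXRKO 3 carry a protocol text for the treated channel that describes the vehicle pool, and the pool of CARPXRKO 3 is labelled deficient in PXR alone in one field and in both receptors in another. Values without these 4 arrays are given where they are called for. Between 0 and 247 of the 578 spots of an array were flagged and left out. No spot of any kind was flagged on CARKO 3, CARKO 4 or CARPXRKO 1, and whether flags were set there is not known. CARPXRKO 1 also had the fewest mouse probes well above background in Cy3, 35 of 120. Arrays within WT correlated at 0.55 or more over the tested probes, those within PXRKO at 0.58 or more and those within CARPXRKO at 0.50 or more. Pairs within CARKO went down to −0.08, pairs of WT and CARPXRKO arrays to −0.61 and pairs of CARKO and PXRKO arrays to −0.58. The direction of every ratio was taken from the dye labels.

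In WT livers Mm061 had the lowest mean of the 82 probes, Mm044 the next and Mm014 the fourth lowest. On the same arrays 12 of the 82 probes, or 14.6%, fell at an adjusted p under 0.05 (limma with Benjamini-Hochberg adjustment), which is the contrast that chose the members. Next to them in the order stood Mm062, with −0.51 ± 0.22 (SD, n = 6), and Mm066, with −0.45 ± 0.43 (SD, n = 6). The median of all 82 probes in WT was −0.03.

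Mm014 was at −0.38, −0.49, −0.48, −0.30, −0.62 and −0.63 on WT 1 to 6. All 6 arrays lay below 0 and within a narrow band. The mean was −0.48 ± 0.13 (SD, n = 6), a level 28.5% below that of the pool. Of the 18 WT spots, 17 were below 0.

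Mm044 was at −1.01, −0.93, −0.65, −0.30, −0.58 and −0.38 on WT 1 to 6. Again all 6 arrays lay below 0, with WT 1 and WT 2 the lowest and WT 4 the highest. The mean was −0.64 ± 0.28 (SD, n = 6), or 35.9% below the pool, and 18 of 18 spots were below 0. A probe below 0 on each of its WT arrays was seen 12 times among the 82, or in 14.6%, so Mm014 and Mm044 shared this with 10 others.

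Mm061 was at 0.62, −0.74, −0.93, −0.66, −0.99 and −2.66 on WT 1 to 6. WT 1 stood above 0 and WT 6 far below the others, and the remaining 4 arrays lay close together. The mean was −0.89 ± 1.05 (SD, n = 6), or 46.2% below the pool, and the SD exceeds the size of the mean. Leaving out WT 6 brought the mean to −0.54, and leaving out WT 1 brought it to −1.20. The 3 spots of Mm061 on WT 1 read 0.28, 0.23 and 1.36, so 1 spot raised that array, whereas on WT 6 they read −2.79, −2.59 and −2.59. The median of the 6 arrays was −0.84.

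**Figure D1:**
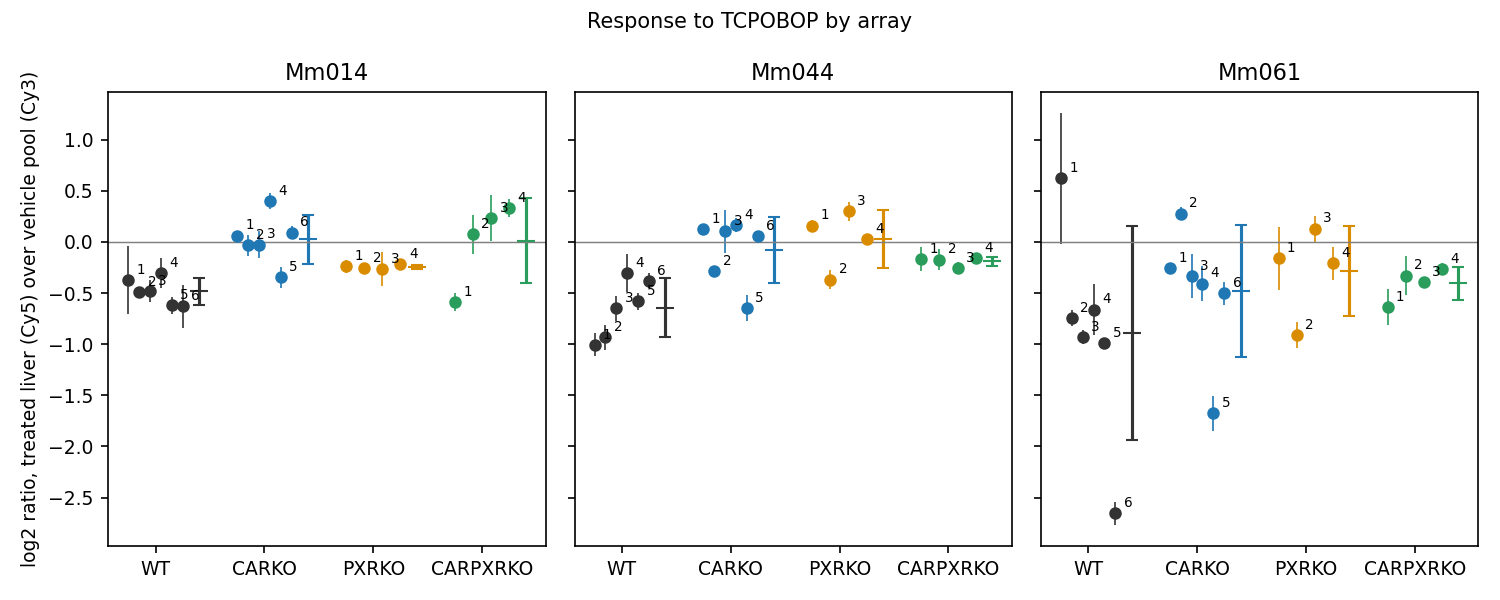
Log2 ratio of treated liver over vehicle pool for Mm014, Mm044 and Mm061 on each array, by genotype, with the replicate number beside each point. Thin lines on the points are the SD of the 3 spots and the thick bar on the right of each genotype is the mean with the SD over arrays; in WT Mm014 and Mm044 are below 0 on all 6 arrays and Mm061 on 5, with WT 6 at −2.66.

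In the receptor-deficient livers none of the 3 probes differed from the pool of its own genotype past the threshold, in any of the 9 tests (limma, adjusted over 82 probes). Among all 82 probes, 4 passed in CARKO (4.88%), 15 in PXRKO (18.3%) and 17 in CARPXRKO (20.7%). These tests use no WT ratio, although the spread is estimated over all 20 arrays. The median of all probes was within 0.01 of 0 in each of the 3 genotypes.

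In CARKO livers Mm014 ranged from −0.34 to 0.40, with a median of 0.02. Values fell on both sides of 0, with 3 of 6 arrays below it. The mean was 0.03 ± 0.24 (SD, n = 6; 95% interval −0.18 to 0.23; limma adjusted p = 0.93). The whole interval lay above each of the 6 WT arrays, whose low values chose the probe.

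In PXRKO livers Mm014 was at −0.24, −0.26, −0.26 and −0.22. The 4 arrays agreed closely and were all below 0, yet all above the highest WT array. In PXRKO, 9 of the 82 probes (11%) were below 0 on every array, and 2 (2.44%) had every array above the highest WT array. Choosing Mm014 by its low WT values favours a place above them, so that place is a description. The mean of Mm014 was −0.24 ± 0.02 (SD, n = 4), about midway between 0 and the WT mean, which itself comes from the choosing arrays. The 95% interval from the fit was −0.49 to 0.0035 (limma, unadjusted p = 0.053, adjusted p = 0.13). This SD over 4 arrays is much smaller than the spread of Mm014 in the other genotypes, and the fit, which shares its spread over all of them, does not use it alone. A limma fit of the PXRKO arrays alone did not pass either (unadjusted p = 0.034, adjusted p = 0.19).

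In CARPXRKO livers Mm014 was at −0.59, 0.08, 0.23 and 0.33. CARPXRKO 1 stood apart below 0 and inside the WT range, and the other 3 arrays lay above 0. The mean was 0.01 ± 0.41 (SD, n = 4; 95% interval −0.23 to 0.26; limma adjusted p = 0.97), and without CARPXRKO 1 it was 0.21. CARPXRKO 1 also had the lowest Cy3 signal over background of the 4 arrays for Mm014, 2.84 times the background against 3.62 to 4.53. On PXRKO 1 that signal was 2.63 times the background, with Mm014 at −0.24, close to the other PXRKO arrays. Any bearing of the signal on these values was not tested.

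Mm044 in CARKO livers ranged from −0.64 to 0.16, with a median of 0.08. CARKO 5 was the lowest, and 4 of 6 arrays were above 0. The mean was −0.08 ± 0.32 (SD, n = 6; 95% interval −0.31 to 0.15; limma adjusted p = 0.73).

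In PXRKO livers Mm044 was at 0.16, −0.37, 0.30 and 0.03. PXRKO 2 was the low array and lay inside the WT range. The mean was 0.03 ± 0.29 (SD, n = 4; 95% interval −0.25 to 0.31; limma adjusted p = 0.88).

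In CARPXRKO livers Mm044 was at −0.17, −0.17, −0.25 and −0.16. All 4 arrays were a little below 0 and above every WT array. Their mean of −0.19 ± 0.04 (SD, n = 4) had a 95% interval of −0.47 to 0.09 and an adjusted p of 0.35 in the limma fit over all genotypes. A limma fit of the CARPXRKO arrays alone, which takes the spread from those 4, gave the same mean an adjusted p of 0.039. The share of all probes that passed in that fit was not taken. Being below 0 on every CARPXRKO array was common, with 24 of 82 probes, or 29.3%. Every CARPXRKO array lay above the highest WT array for 12 of 82 probes, or 14.6%. Choosing Mm044 by its low WT values favours this, so it is a description.

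Mm061 in CARKO livers ranged from −1.68 to 0.28, with a median of −0.37. It was below 0 on 5 of 6 arrays, as in WT, and CARKO 5 was the lowest. The mean was −0.48 ± 0.65 (SD, n = 6; 95% interval −1.05 to 0.08; limma unadjusted p = 0.09, adjusted p = 0.37). Without CARKO 5 the mean was −0.25.

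In PXRKO livers Mm061 was at −0.16, −0.91, 0.13 and −0.21. PXRKO 2 was the low array here too, and PXRKO 3 was above 0. The mean was −0.29 ± 0.44 (SD, n = 4; 95% interval −0.98 to 0.41; limma adjusted p = 0.58), and without PXRKO 2 it was −0.08.

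In CARPXRKO livers Mm061 was at −0.63, −0.33, −0.39 and −0.27. All 4 arrays were below 0 and within the wide span of the WT arrays, −2.66 to 0.62. On CARPXRKO 1, the lowest, Mm061 was well above background in neither channel. The mean was −0.41 ± 0.16 (SD, n = 4; 95% interval −1.10 to 0.29; limma adjusted p = 0.39 over all genotypes and 0.009 in a fit of the CARPXRKO arrays alone). For the latter fit, the share of all probes that passed was not taken. Mm061 was thus below 0 on 12 of the 14 arrays of receptor-deficient livers, against 8 for Mm014 and 7 for Mm044. The share of such counts over all 82 probes was not taken, and 29.3% of them were below 0 on every CARPXRKO array. The intervals of Mm061 in all 3 genotypes include both 0 and the WT median of −0.84.

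Set against WT, the response of each probe was nearer to 0 in each deficient genotype, by amounts that differed in how far they exceed the spread. No p is given for these differences, since the WT arrays that chose the probes enter them. Choosing probes by low WT values also pushes the differences upward, so their sizes and errors do not measure a dependence on the receptors. For Mm014 the difference from WT was 0.51 ± 0.14 (SE) in CARKO, 0.24 ± 0.15 (SE) in PXRKO and 0.50 ± 0.15 (SE) in CARPXRKO. For Mm044 it was 0.56 ± 0.15, 0.67 ± 0.17 and 0.45 ± 0.17 (SE) in the same order. For Mm061 it was 0.41 ± 0.38, 0.61 ± 0.43 and 0.49 ± 0.43 (SE), each about as large as its error, and without WT 6 it was 0.06, 0.25 and 0.13.

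The arrays showed the same contrast between the probes. For Mm014, 5 of 6 CARKO, 4 of 4 PXRKO and 3 of 4 CARPXRKO arrays lay above the highest WT array. For Mm044 the counts were 5 of 6, 3 of 4 and 4 of 4. For Mm061 no array of any genotype did, because WT 1 is at 0.62. A probe with every array above the highest WT array was seen in 1.22% of the 82 probes for CARKO, in 2.44% for PXRKO and in 14.6% for CARPXRKO. No share was taken for probes with only some arrays above it. Choosing probes by low WT values itself favours such counts, so they are a description and not support for a dependence on the receptors. Without the 4 arrays whose protocol texts conflict, the WT means were −0.45 for Mm014, −0.66 for Mm044 and −0.86 for Mm061, and no response in a deficient genotype passed.

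The comparisons among the deficient genotypes hold no WT array and were tested. None of the 9 differences passed at an adjusted p under 0.05, where 18 of the 82 probes (22%) did for CARPXRKO against CARKO, 23 (28%) for CARPXRKO against PXRKO and 9 (11%) for PXRKO against CARKO. For Mm014 in both comparisons with PXRKO, and for Mm061 in all 3, the 95% interval reached a difference as large as the mean WT response, so equal responses are not shown.

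For Mm014 the response in CARPXRKO minus that in CARKO was −0.01 ± 0.15 (SE; 95% interval −0.33 to 0.31; limma adjusted p = 0.96). PXRKO minus CARKO was −0.27 ± 0.15 (SE; −0.59 to 0.05; limma adjusted p = 0.21), and CARPXRKO minus PXRKO was 0.26 ± 0.17 (SE; −0.09 to 0.61; limma adjusted p = 0.25). The last difference depended on 1 array, as without CARPXRKO 1 it was 0.46 (limma adjusted p = 0.022), past the threshold. The share of all probes that passed without that array was not taken.

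For Mm044 the differences were −0.11 ± 0.17 (SE; 95% interval −0.47 to 0.25) for CARPXRKO minus CARKO, −0.22 ± 0.19 (SE; −0.61 to 0.18) for CARPXRKO minus PXRKO and 0.11 ± 0.17 (SE; −0.25 to 0.47) for PXRKO minus CARKO. Their limma adjusted p-values were 0.76, 0.40 and 0.70. For Mm061 they were 0.08 ± 0.43 (SE; −0.82 to 0.97), −0.12 ± 0.47 (SE; −1.10 to 0.86) and 0.20 ± 0.43 (SE; −0.70 to 1.09), with limma adjusted p-values of 0.96, 0.87 and 0.75.

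The 2 channels of a ratio were also read apart, after normalization between channels and arrays (loess and Aquantile), which was chosen after the values had been seen. Mm061 stood out in its vehicle pools. Its Cy3 level, on a log2 scale, was 11.01 to 11.31 on the WT arrays and 10.71 to 11.26 on the CARKO arrays, but 9.60 to 9.72 on the PXRKO arrays and 9.63 to 9.81 on the CARPXRKO arrays. The pools of both genotypes that lack PXR therefore read lower than those of both that keep it, by 1.44 on average and with no overlap. That gap was the largest in this direction among the 82 probes, and a gap without overlap in this direction was seen in 8 of 82 (9.76%). Each genotype had 1 pool, so repeated arrays of a pool are technical repeats and pool and genotype cannot be told apart.

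The treated livers also read lower for Mm061 in both genotypes that lack PXR, with mean Cy5 levels of 10.27 in WT, 10.63 in CARKO, 9.36 in PXRKO and 9.34 in CARPXRKO. WT 6, at 8.36, was the lowest treated liver of all, while the pool on that array read 11.01, close to the 11.10 to 11.31 of the other WT arrays. The unnormalized Cy3 signal of Mm061 was 1.58 to 3.60 times its background on the 8 PXRKO and CARPXRKO arrays.

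Mm014 had a different pattern in its pools: the Cy3 level was 10.50 to 10.84 on CARPXRKO arrays and 9.47 to 10.34 on all others. Pools of CARPXRKO above all other arrays were seen for 6 of 82 probes (7.32%). Its treated livers averaged 9.32 in WT, 9.80 in CARKO, 9.72 in PXRKO and 10.70 in CARPXRKO. The pools of Mm044 averaged 13.21 in WT, 12.84 in CARKO, 12.30 in PXRKO and 12.85 in CARPXRKO. Its treated livers averaged 12.57, 12.76, 12.33 and 12.66 in the same order.

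**Figure D2:**
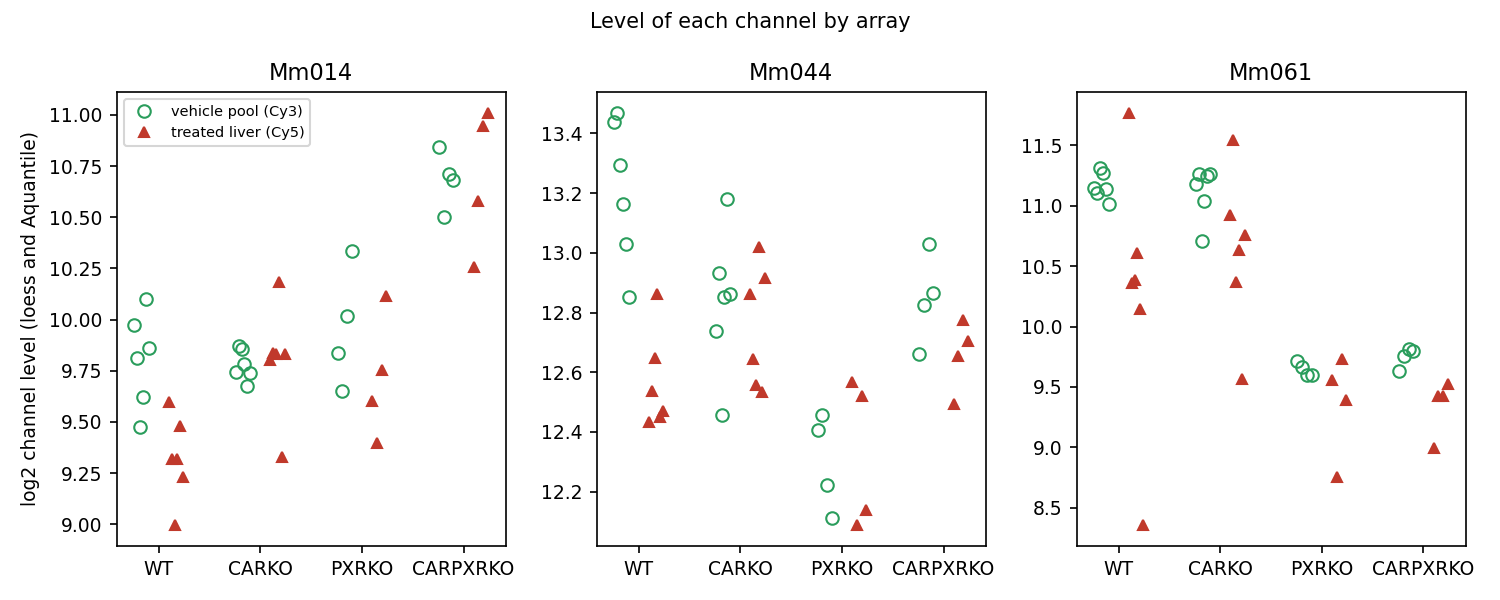
Log2 level of the vehicle pool (Cy3, open circles) and of the treated liver (Cy5, filled triangles) on each array, by genotype, after loess and Aquantile normalization; each panel has its own vertical axis. Pool levels of Mm061 are 9.60 to 9.81 in PXRKO and CARPXRKO and 10.71 to 11.31 in WT and CARKO.

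The amount that loess removed from a probe differed between arrays and moved with the genotypes. At the 3 probes the curve was at −2.54 to −1.24 on WT 1 to 4 and CARKO 5, and at −0.41 to 2.24 on the other 15 arrays. CARKO 5 was also the lowest CARKO array for each of the 3 probes. On WT 5 and WT 6 the curve was within −0.12 to 0.24, and there Mm014 was at −0.62 and −0.63, Mm044 at −0.58 and −0.38 and Mm061 at −0.99 and −2.66, all below 0. Before loess these values on WT 5 and WT 6 were −0.38 and −0.71 for Mm014, −0.46 and −0.50 for Mm044, and −0.93 and −2.65 for Mm061. The part of the curve in the values of the 3 probes was not tested.

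**Figure D3:**
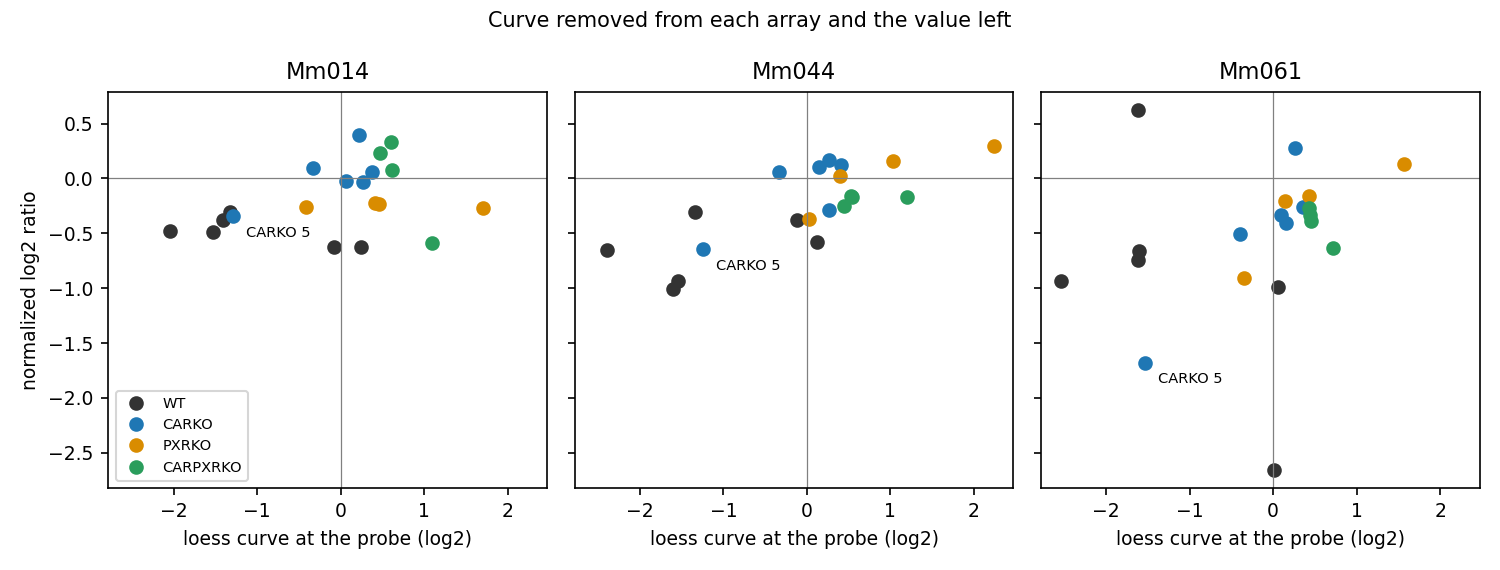
Normalized log2 ratio of each probe (vertical) against the value of the loess curve removed from it (horizontal, log2), 1 point per array, coloured by genotype. WT 1 to 4 and CARKO 5 lie at curve values of −2.54 to −1.24, whereas WT 5 and WT 6 lie near 0 on the horizontal axis and below 0 on the vertical one for all 3 probes.

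By the spot coordinates, odd-numbered replicates had larger vertical (Y) values than even-numbered ones. Arrays with the larger values are called upper here and the others lower, although the direction of that axis on the slide is not known. In WT the means of the upper and the lower arrays (n = 3 each) were −0.49 and −0.47 for Mm014, −0.74 and −0.54 for Mm044, and −0.43 and −1.35 for Mm061. The highest array of Mm061, WT 1, was in the upper position and the lowest, WT 6, in the lower. Within the upper position the difference of Mm061 from WT was −0.32 in CARKO and −0.08 in CARPXRKO, both opposite in sign to the values over all arrays, and 0.42 in PXRKO. For Mm014 and Mm044 the differences of the 3 deficient genotypes from WT were above 0 in both positions, as in all 21 alternatives tried and with any 1 array left out. Choosing probes by low WT values favours that sign, and the alternatives reuse the same arrays, so it is a description.

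The 3 probes did not move as one. Over the 20 arrays the root mean square difference of the log2 ratios was 0.33 between Mm014 and Mm044, 0.72 between Mm014 and Mm061 and 0.75 between Mm044 and Mm061. The tested probe most like Mm014 by this measure was Mm020, at 0.27 against a median of 0.47 over the 79 tested probes outside the set. Mm020 was also the most like Mm044, at 0.32 against a median of 0.56. The mean log2 ratios of Mm020 were −0.35 in WT, 0.03 in CARKO, −0.17 in PXRKO and 0.02 in CARPXRKO. Mm014 likewise had its lowest mean in WT and its next lowest in PXRKO, with CARKO and CARPXRKO nearly equal. For Mm061 the most alike was Mm113, at 0.74 against a median of 0.95, with means of −0.35, −0.01, 0.01 and 0.09. All probes on an array share its RNA, its dyes and its normalization, and these distances are a description.

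Other ways of processing the intensities left the WT means of the 3 probes below 0. They reuse the WT arrays that chose the probes, so this is a description. Over 21 alternatives other than leaving out arrays, Mm014 ranged from −0.84 to −0.35, Mm044 from −1.12 to −0.46 and Mm061 from −1.45 to −0.43. Centring on the calibration control spots in place of loess moves all probes of an array alike, and it put the median of all 82 probes at −0.36 in WT, 0.30 in CARKO, 0.46 in PXRKO and −0.31 in CARPXRKO. Under that centring Mm014 had a mean of 0.21 in PXRKO, above 0 but below that median of 0.46.

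**Figure D4:**
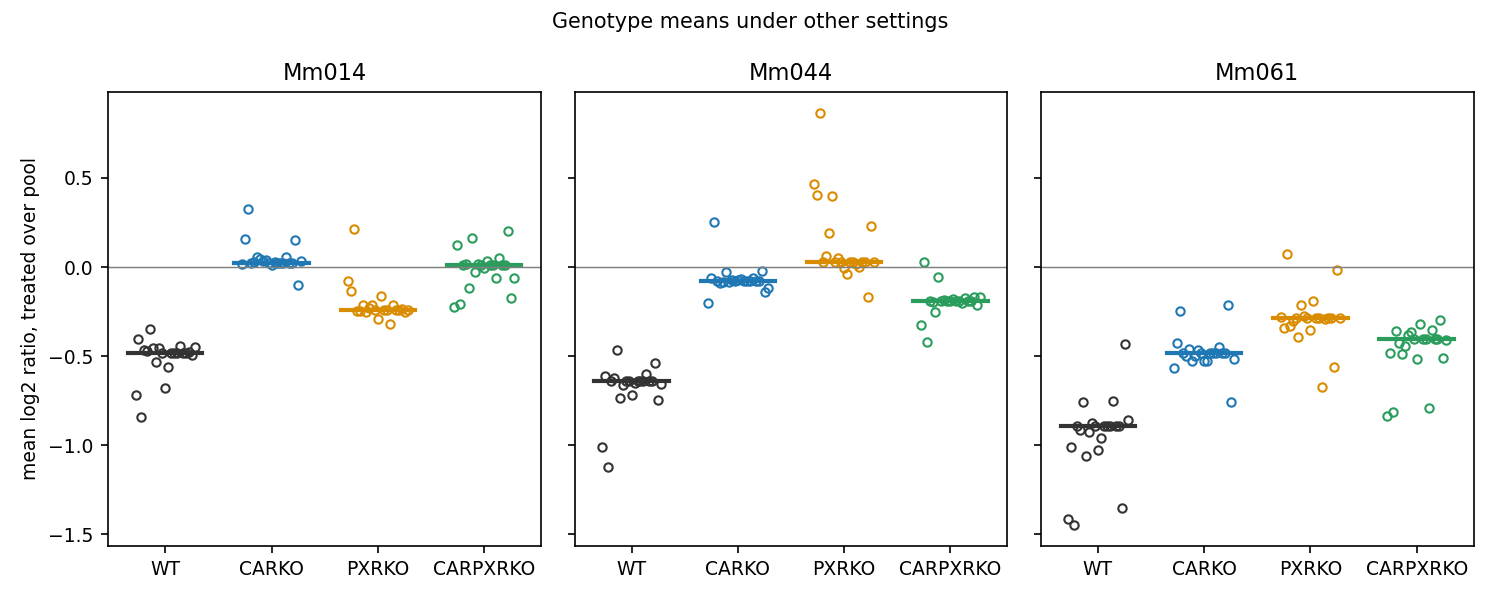
Mean log2 ratio of each probe in each genotype as reported (horizontal bars) and under the other ways of processing (open circles, 1 per alternative). In WT, whose low values chose the probes, every circle is below 0, and in PXRKO those of Mm014 run from −0.32 to 0.21.

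In the authors' deposited table of log2 ratios, where each column was first centred on its own median over the mouse probes, Mm014 was below 0 on 5 of the 5 WT arrays with a value, Mm044 on 6 of 6 and Mm061 on 5 of 6. Centring was used because the WT columns had medians from −1.02 to 0.65, and it was chosen after the data had been seen. Before centring, Mm014 read 0.41 and 0.025 on WT 5 and WT 6, and Mm044 read 0.52 and 0.38, all above 0. Mm061 read −0.059 and −1.90 on the same arrays. In CARKO the same table had Mm014 below 0 on 1 of 6 arrays, Mm044 on 2 and Mm061 on 5. Mm014 in PXRKO was below 0 on 4 of 4 arrays there, between −0.27 and −0.0055. No share of such counts over all probes was taken for that table. It holds the same arrays, and the WT ones chose the probes, so these counts are a description.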

How the data were processed

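Per the file headers, the deposited scanner tables hold spot intensity medians and local backgrounds for both channels, not normalized. As deposited, they also give the percent of saturated pixels and a flag score, below 0 for flagged spots. The authors' value table holds log2 ratios; its centring and exact scale are not known, with slopes of 0.57 to 0.96 against the scanner ratios, and it was an alternative only. Groups come from the sample titles. Intensities were corrected with normexp (offset 50) in limma 3.58.1 (R 4.3.3), then normalized by global loess per array, to which neither controls nor flagged spots contributed. Flagged spots were dropped and the 3 spots of a probe averaged. One lmFit and eBayes model over 20 arrays (16 residual and 3.12 prior degrees of freedom) covered 82 probes, with Benjamini-Hochberg adjustment over them; 38 probes had too few values. The steps were tested on simulated data. The members, comparisons and alternatives were chosen with earlier results of these data known. Named beside the members are 1 most alike probe each and 2 neighbours in the WT order. The titles number the replicates but no label says which animals they came from, so p-values measure the spread between these arrays, which may be partly technical, and the number of arrays limits the precision. Transcripts of the deleted receptors could not be examined, as no probe is paired with a gene. Same-numbered arrays of different genotypes were not paired: over 26 pairs their deviations from the group means correlated at −0.50 to 0.31, with 11 over 0.1.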

Additional observations from a re-analysis of the deposited data

Results flagged for a closer look

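Mm044 on CARPXRKO 3 read −0.25, lower than on the other 3 CARPXRKO arrays, which lay between −0.17 and −0.16. Its distance from the nearest of them was 0.86 of the range of the 4 arrays, above Dixon's 95% critical value for 4 samples. About 1 in 20 groups passes this mark by chance, and the whole range here was small. Each of the 3 probes was screened in each of the 4 genotypes, and only this group passed. CARPXRKO 3 is 1 of the arrays with conflicting labels.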

How the results depend on the processing

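Precision is limited by 4 to 6 arrays a genotype, 1 pool each and no dye swap. The WT means of the 3 probes were below 0 under all alternatives, which reuse the arrays whose low values chose the probes. The 18 tested results had 504 alternative values, of which 3 passed: Mm014 in CARPXRKO minus PXRKO without CARPXRKO 1, and, fitted on CARPXRKO alone, Mm044 (−0.19) and Mm061 (−0.41), where the spread came from fewer arrays. The share of all probes that passed in those settings was not taken. For other values that follow, the cause was not tested.

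With the replicate number as a replicate block, Mm014 in CARPXRKO was −0.059, and Mm061 was −0.31 for CARPXRKO minus CARKO and −0.19 for PXRKO minus CARKO. The block also moved Mm061 to −0.67 in PXRKO and −0.79 in CARPXRKO (limma adjusted p = 0.14 and 0.080), and to 0.22 and 0.10 for PXRKO and CARPXRKO minus WT. It changed no call. With calibration control centring, which shifts all probes of an array together, Mm014 was −0.84 in WT, 0.21 in PXRKO, −0.21 in CARPXRKO, 1.17 for CARKO minus WT, 1.06 for PXRKO minus WT and −0.42 for CARPXRKO minus PXRKO. Mm044 was −1.12 in WT, 0.25 in CARKO, and 1.38, 1.99 and 0.70 for CARKO, PXRKO and CARPXRKO minus WT. Mm061 was 0.075 in PXRKO, 1.52 for PXRKO minus WT and −0.57 for CARPXRKO minus CARKO. In the authors' deposited table, Mm014 was −0.72 in WT, −0.23 in CARPXRKO, 0.73 for CARKO minus WT, 0.64 for PXRKO minus WT and −0.15 for CARPXRKO minus PXRKO, Mm044 −1.01 in WT, 1.48 for PXRKO minus WT and 0.69 for CARPXRKO minus WT, and Mm061 −0.27 for CARPXRKO minus CARKO. Centred on array medians, a setting chosen after seeing the data, the authors' deposited table gave Mm044 0.0295 in CARPXRKO, 0.090 for CARPXRKO minus CARKO, 0.64 for CARPXRKO minus WT and 1.02 for PXRKO minus WT, and Mm061 −0.058 for CARPXRKO minus CARKO.

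With loess fitted without the WT risers, Mm014 was −0.35 in WT, −0.12 in CARPXRKO and 0.14 for PXRKO minus WT, Mm044 0.21 for CARPXRKO minus WT and Mm061 −0.023 for CARPXRKO minus CARKO. Median centring gave Mm014 0.11 for CARPXRKO minus CARKO, and Mm044 0.68 for CARPXRKO minus WT and 1.14 for PXRKO minus WT. Plain subtraction gave Mm014 −0.68 in WT, −0.0037 in CARPXRKO and 0.39 for PXRKO minus WT, and Mm044 −0.0042 in PXRKO. Print-tip loess gave Mm014 0.0040 for CARPXRKO minus CARKO and 0.40 for PXRKO minus WT, and Mm044 −0.040 in PXRKO. Scale normalization gave Mm044 −0.0013 in PXRKO. Mm014 in CARPXRKO was −0.030 with the median of spots and −0.060 without the arrays of conflicting text.

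Within the lower slide position, Mm014 was 0.050 for CARPXRKO minus CARKO. Mm044 was −0.17 in PXRKO, 0.37 for PXRKO minus WT, −0.15 for PXRKO minus CARKO and 0.0045 for CARPXRKO minus PXRKO. Mm061 was −0.088 for CARPXRKO minus CARKO, 0.26 for CARPXRKO minus PXRKO and −0.35 for PXRKO minus CARKO. Within the upper one, Mm014 was −0.10 in CARKO and −0.18 in CARPXRKO, and Mm044 0.97 for PXRKO minus WT.

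Leaving out 1 array at a time, Mm014 ranged from −0.050 to 0.099 (CARKO), −0.092 to 0.21 (CARPXRKO), −0.12 to 0.19 for CARPXRKO minus CARKO and 0.15 to 0.46 for CARPXRKO minus PXRKO. Mm044 ranged from −0.13 to 0.032 (CARKO), −0.060 to 0.16 (PXRKO) and −0.0029 to 0.24 for PXRKO minus CARKO. Mm061 ranged from −0.16 to 0.23 for CARPXRKO minus CARKO, −0.33 to 0.020 for CARPXRKO minus PXRKO and −0.042 to 0.40 for PXRKO minus CARKO. Its differences from WT ranged from 0.057 to 0.71 (CARKO), 0.25 to 0.91 (PXRKO) and 0.13 to 0.79 (CARPXRKO).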
